A study of Mus musculus with 20 samples.

Results

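Endothelial and endocardial cells of the heart are known by a small set of genes, of which 10 are described here: Pecam1, Cdh5, Kdr, Flt1, Tek, Tie1, Eng, Emcn, Plvap and Nrg1. They were chosen by name, as the rows of the deposited expression table that carry these symbols, and they are 10 of the 26440 genes in the table. All 10 were found, and all 10 passed the filter on low values that 18125 genes passed. They were measured by bulk RNA sequencing (SMART-Seq2 libraries from total RNA) in 20 libraries from mouse hearts, in 6 groups. Whole hearts, at the embryonic stage E13.5, of 4 wild-type embryos and 4 embryos with a myocardium-specific knockout of Creld1 were sequenced, and at postnatal day 3 (P3) the atria and the ventricles of 3 wild-type and 3 knockout pups. Every animal was of the strain C57BL/6N, and no treatment is named. The genotype label of the knockout, MyHC-Creld1 KO, names a MyHC (myosin heavy chain) driver, which acts in cardiomyocytes. Endothelial cells are not a target of such a driver, and the labels do not say which MyHC promoter or which Creld1 allele was used. Each knockout animal shares its replicate number, litter and preparation date with 1 wild-type animal, and the atria and ventricles of a replicate number come from the same pup. At E13.5 pairs 2 and 3 are from 1 litter.

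Endothelial cells line every vessel of the heart, and the endocardium is the endothelium that lines its chambers. Cdh5 and Pecam1 encode adhesion proteins of the junctions between these cells. Kdr and Flt1 encode receptors of the VEGF growth factors, Tek the receptor of the angiopoietins and Tie1 its partner, and Eng a co-receptor of BMP9 and BMP10. Endocardium and veins are known to be rich in Emcn, a surface sialomucin, while Plvap forms the diaphragms of fenestrated endothelium and of caveolae. Nrg1 is a ligand that endocardium sends to the ErbB receptors of the neighbouring myocardium, and its signal is needed for trabeculation. In bulk tissue, fewer endothelial cells and less RNA of a gene per endothelial cell cannot be told apart.

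The gene models lie on mouse chromosomes 2 (Eng), 3 (Emcn), 4 (Tek and Tie1), 5 (Kdr and Flt1), 8 (Cdh5, Plvap and Nrg1) and 11 (Pecam1). In GENCODE vM21 (GRCm38, the assembly also called mm10) Kdr spans chr5:75932827-75978458 on the minus strand, Tek chr4:94739289-94874976 on the plus strand, Emcn chr3:137341067-137432185 on the plus strand and Nrg1 chr8:31814551-32884029 on the minus strand. Exons of other genes on the opposite strand cover 61 of the 4048 exonic bases of Eng (Fpgs) and 482 of the 10351 exonic bases of Nrg1 (Gm26578), and no exonic base of the other 8. No source used here says whether reads were counted by strand.

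The 250 bases before the start site are shown for Kdr, Tek and Emcn. Among the 6 genes with a promoter sequence here, these 3 had the clearest differences between chambers or genotypes described below. The sequences are from RefSeq (GRCm38.p6), on the strand of the gene, and their coordinates are chr5:75978456-75978705, chr4:94739039-94739288 and chr3:137340828-137341077. Capitals mark GGAA, the core that ETS factors bind, or its reverse complement TTCC.
Kdr: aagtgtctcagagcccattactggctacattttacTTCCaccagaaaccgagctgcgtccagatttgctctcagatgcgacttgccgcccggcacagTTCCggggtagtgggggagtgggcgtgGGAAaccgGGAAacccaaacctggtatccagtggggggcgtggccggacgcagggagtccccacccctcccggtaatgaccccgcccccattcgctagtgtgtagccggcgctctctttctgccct
Tek: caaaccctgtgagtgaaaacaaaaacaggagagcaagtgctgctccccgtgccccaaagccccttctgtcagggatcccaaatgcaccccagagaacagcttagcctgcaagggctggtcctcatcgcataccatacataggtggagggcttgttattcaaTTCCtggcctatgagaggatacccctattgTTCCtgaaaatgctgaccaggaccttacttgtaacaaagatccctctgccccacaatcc
Emcn: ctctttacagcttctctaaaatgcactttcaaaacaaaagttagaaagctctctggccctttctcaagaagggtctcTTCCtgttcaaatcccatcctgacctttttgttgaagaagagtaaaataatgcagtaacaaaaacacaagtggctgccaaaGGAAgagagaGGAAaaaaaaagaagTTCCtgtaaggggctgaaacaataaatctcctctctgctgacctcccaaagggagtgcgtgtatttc
Kdr holds 4 such matches, Tek 2 and Emcn 4. Eng (3 matches), Tie1 (7) and Flt1 (4) also had a promoter in the table, so that all 6 promoters found held at least 1 match, as did 93.446% of the 32851 promoters in the table, whose median was 3. The window of Kdr was 61.6% G and C with 16 CpG dinucleotides, that of Emcn 40.8% with 1, against medians of 52.4% and 6 over all promoters. Of other short motifs searched on both strands, CACCC (bound by KLF factors) was in 5 of the 6 windows and in 52.014% of all, and AGATAA (bound by GATA factors) in 0 of the 6 and in 9.988% of all. Promoters of Pecam1, Cdh5, Plvap and Nrg1 were not used here.

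Values are the normalized signal of the deposited table. How it was scaled is not stated; if each library was divided by 1 factor, as steps among the low values would have it, a single read was worth a signal of 0.562 to 2.21 and the totals came to an estimated 5138353 to 20669378 reads. Some libraries stand apart or go against their labels. Creld1 itself had a signal of 66, 92.2, 60.8 and 34 in the E13.5 wild-type replicates 1 to 4 and of 70.9, 7.48, 38.4 and 4.64 in knockout replicates 1 to 4. In the atria it was at 105, 21.6 and 146 in wild-type pups 1 to 3 and at 23.1, 26.6 and 82.4 in knockout pups 1 to 3, and in the ventricles at 62.2, 59.7 and 130 against 19.9, 59.3 and 51.9. The E13.5 library labelled knockout 1 and the atrial library labelled knockout 2 were thus above their litter partners, and the ventricular library labelled knockout 2 was level with its partner. Creld1 differed by -1.66 ± 0.76, -0.89 ± 0.88 and -0.97 ± 0.88 on the log2 scale at E13.5, in atria and in ventricles (SE; limma, adjusted p = 1 in each), so each direction given for the knockout is that of the labels. The library labelled wild-type atria 2 held ventricular transcripts: its signal of Myl2, the ventricular myosin light chain, was 9242, while the other atrial libraries held at most 97.2. Its Xist signal was 2876 against 74.9 in the ventricles of the same pup, though the labels give both to 1 pup. Xist, which female cells express, was also uneven between genotypes: at E13.5 it was high in wild-type 1, 3 and 4 and in knockout 2, so that all 4 pairs were of opposite Xist status. At P3 it was high in all 3 wild-type atria, in wild-type ventricles 1 and 3, and in both tissues of knockout pups 2 and 3. High libraries had a signal of at least 1591 and the others of at most 74.9. With log2 Xist as a covariate, Emcn, Nrg1 and Tek in the atria differed between genotypes by 1.21, 2.15 and -0.79 (limma, adjusted p = 0.84, 0.972 and 0.796). The third atrial pair, wild-type 3 and knockout 3, stood apart from the other 4 atrial libraries over the whole table. It had 22819 and 23457 genes above 0, where the other atrial libraries had at most 21409. It also stood apart in several of the 10 genes, as given below.

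**Figure D1:**
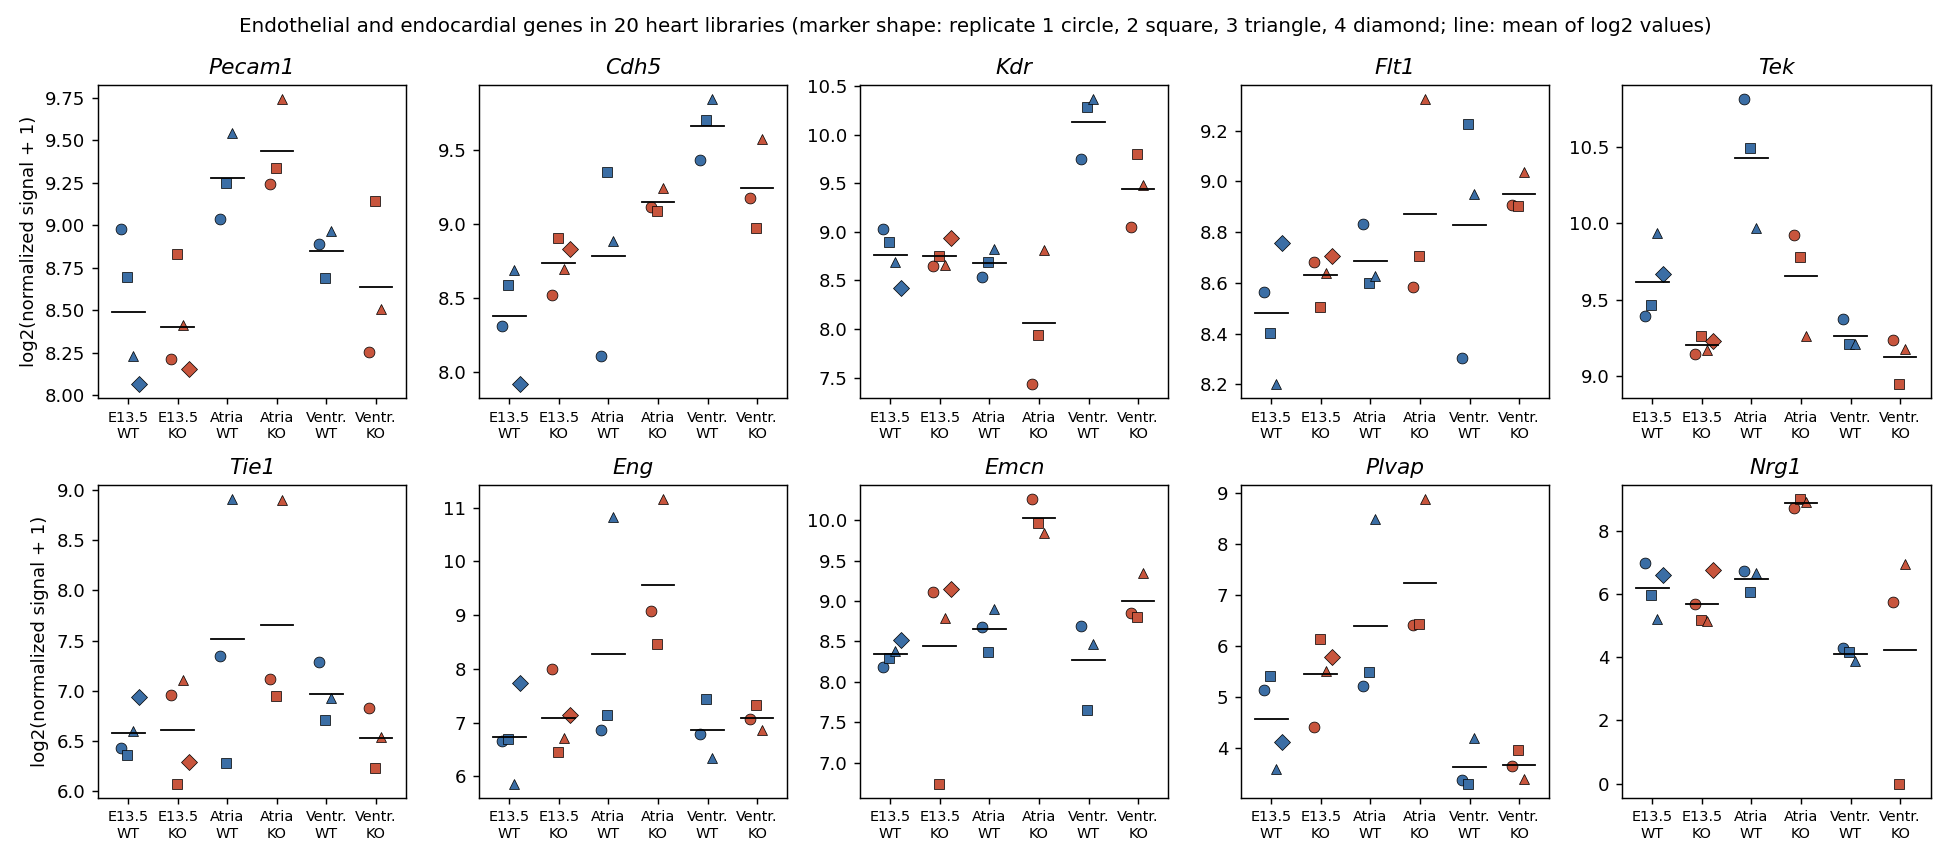
Normalized signal, as log2(signal + 1), of the 10 genes in each of the 20 libraries, by group (blue wild-type, red knockout; marker shape gives the replicate number, the line is the mean of the log2 values). Nrg1 and Emcn are higher in all 3 knockout atria than in all 3 wild-type atria, Kdr is highest in the wild-type ventricles, and Eng, Tie1 and Plvap are far higher in the third atrial pair (triangles) than in the other atria.

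Compared per kilobase of exon, which allows genes to be ranked, Tek had the highest level in wild-type E13.5 hearts, at 168 signal units per kilobase, and in wild-type atria, at 299.9. In the wild-type ventricles Cdh5 was highest at 194 per kilobase, followed by Tek at 131 and Kdr at 126. Nrg1 was the lowest of the 10 in all 3 wild-type groups, at 7.81, 8.82 and 1.59 per kilobase in E13.5 hearts, atria and ventricles. In the knockout atria Nrg1 stood eighth, at 45.8 per kilobase. Tie1 and Flt1 stayed between 18.8 and 49.9 per kilobase in all 6 groups.

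**Figure D2:**
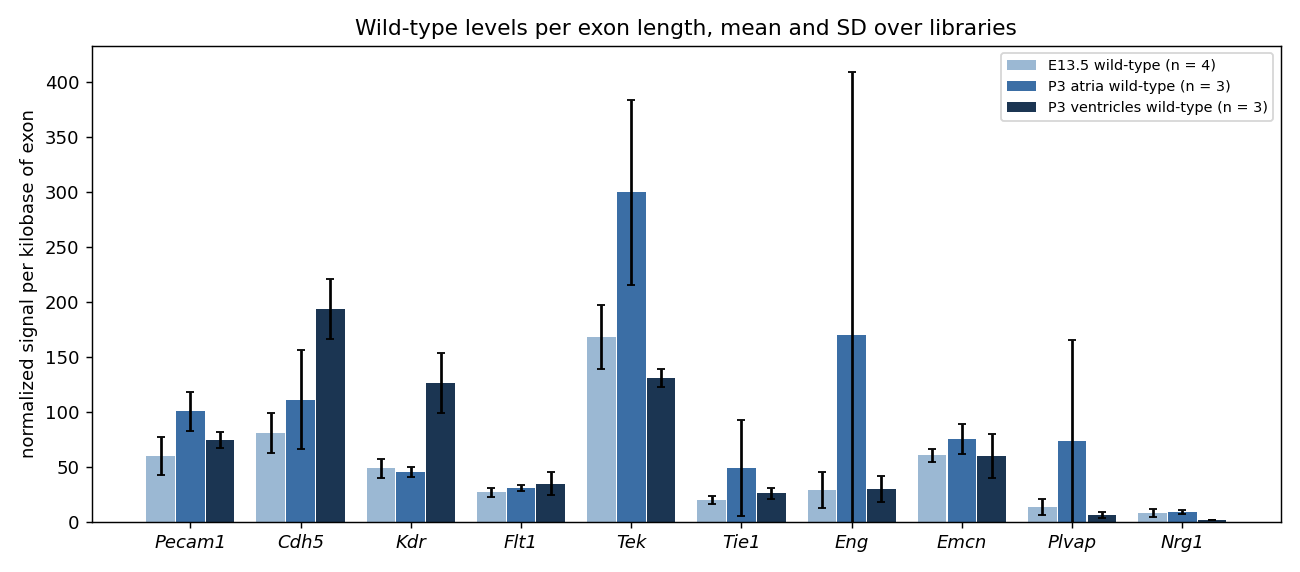
Wild-type levels of the 10 genes as normalized signal per kilobase of exon (bars, mean; error bars, SD between libraries; 4 E13.5 hearts, 3 atria, 3 ventricles). Tek leads in E13.5 hearts and atria and Cdh5 in ventricles, and the wide bars of Eng, Plvap and Tie1 in atria come from the third wild-type atrial library.

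Kdr and Cdh5 were the genes of the 10 that rose between the wild-type E13.5 heart and the wild-type P3 ventricles. Kdr had a signal of 523, 474, 411 and 342 in the 4 E13.5 hearts and of 863, 1245 and 1318 in the 3 ventricles. Every ventricle was above every E13.5 heart, and the difference was 1.38 ± 0.30 on the log2 scale (SE, n = 4 and 3; limma, adjusted p = 0.0074), a 2.60-fold rise. Cdh5 had a signal of 317, 385, 413 and 242 in the hearts and of 689, 834 and 918 in the ventricles, again with no overlap, a rise of 1.28 ± 0.28 (limma, adjusted p = 0.00913). In this comparison 5.09% of all genes tested were called in either direction at an adjusted p under 0.05, and 3.35% were called higher. At an unadjusted p under 0.05 the same comparison held 2 of the 10, again Kdr and Cdh5, and 17.4% of all genes. Stage and dissection cannot be told apart here, since the E13.5 libraries hold whole hearts, and replicates 1 to 3 at E13.5 were also prepared in an earlier year than the P3 libraries. Neither call held without the third wild-type ventricle, where the adjusted p of limma was 0.0539 for Kdr and 0.0574 for Cdh5. Taken relative to the mean of 29 other pan-endothelial genes of the same library, the rises were 0.60 for Kdr and 0.50 for Cdh5, with an adjusted p of 0.234 and 0.402. Without both libraries of wild-type pup 2, Kdr had an adjusted p of 0.0526.

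The other 8 genes were not called between wild-type E13.5 hearts and ventricles. Nrg1 had a signal of 128, 62.3, 36 and 97.4 in the hearts and of 18.7, 16.9 and 13.7 in the ventricles, all 3 below the lowest heart, a difference of -2.09 ± 1.01 (limma, adjusted p = 0.29). Nrg1 was also called there when the ventricles of knockout pup 2, with an Nrg1 signal of 0, were left out of the fit. Flt1 differed by 0.34, Pecam1 by 0.36, Tie1 by 0.39, Tek by -0.35 and Plvap by -0.93. Emcn and Eng differed by -0.07 and 0.12.

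The genes around the VEGF receptors and the vessel types were read in the same comparison. Of 29 other pan-endothelial genes tested, 23 were higher and 6 lower in the ventricles, with a median difference of 0.54, and 3 were called, all higher (Egfl7, Jam2 and Ptprb). Of 17 genes of capillary and coronary endothelium, 15 were higher, with a median of 2.99 against 0 for all genes tested, and 5 were called, all higher. Fabp4 and Cd36, which handle fatty acids in capillaries, and Lpl, lipoprotein lipase, rose by 4.82, 4.03 and 3.11. Lpl and Cd36 are also expressed by cardiomyocytes, and markers of cardiomyocytes were higher as well (5 of 10 called, median 1.09); their part in the result was not tested. Of 17 endocardial genes, 1 was called higher (Fgf16) and 5 lower, among them Npr3, the natriuretic peptide clearance receptor, by -1.93, and Gata5, by -4.76. Vegfa, the main ligand of Kdr, had a signal of 237 ± 81.2 in the hearts and 455 ± 46.2 (SD, n = 4 and 3) in the ventricles, a difference of 1.00 ± 0.31 (limma, adjusted p = 0.0694).

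Between wild-type E13.5 hearts and wild-type atria, 0 of the 10 genes were called by limma, where 5.50% of all genes were called. At an unadjusted p under 0.05 there were 3 of the 10, against 19.1% of all genes, and all 3 were higher in atria, as 10.6% of all genes were. Tek had a signal of 672, 705, 978 and 815 in the hearts and of 1797, 1440 and 1003 in the atria, each above every heart, a difference of 0.81 ± 0.24 (adjusted p = 0.0521). With the replicate number as a block, Tek (adjusted p = 0.0102) and Eng (adjusted p = 0.0222) were called by limma. Replicate numbers tie no E13.5 animal to a P3 pup, and this block left both estimates as they were while it took the spread between litters out of the SE, so these calls do not cover that spread. Tek was also called when the third wild-type or the third knockout atrial library was left out. Eng had a signal of 115, 139 and 1806 in the atria, so that its difference of 1.53 ± 0.75 rests on the third library. The remaining pair at an unadjusted p under 0.05 was Pecam1, at 0.78 ± 0.29, and Plvap, at 1.84 ± 0.78. Plvap had a signal of 34.2, 41.5, 11 and 16.4 in the hearts and of 36.2, 44.2 and 357 in the atria. The size of its difference thus rests largely on wild-type atria 3, and wild-type atria 1 lay within the range of the hearts. The comparisons of atria and of ventricles with E13.5 share the E13.5 libraries.

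Within pups as labelled, Kdr was higher and Tek lower in the ventricles than in the atria of every wild-type pup. Wild-type pup 2 is a pair by its labels only. Its atrial library held ventricular transcripts and differed in Xist from its ventricular library. Kdr had a signal of 371, 411 and 454 in the atria of wild-type pups 1 to 3 and of 863, 1245 and 1318 in their ventricles. Tek had 1797, 1440 and 1003 in the atria and 662, 592 and 593 in the ventricles. The mean within-pup difference, ventricles minus atria, was 1.45 ± 0.33 for Kdr (adjusted p = 0.197) and -1.16 ± 0.30 for Tek (adjusted p = 0.248; limma on within-pup differences, n = 3). In that fit 0 of the 10 genes were called and 16 of all 18125, or 0.0883%, were, and 4 of the 10 had an unadjusted p under 0.05 against 9.87% of all genes. Leaving out 1 pup at a time also gave 0 of the 10 called. With the replicate number as a block, whose SE again leaves out the spread between litters, both were called (limma, adjusted p = 0.0324 for Kdr and 0.0276 for Tek). They were also called in the fit over all 20 libraries, which takes the tissues of a pup as independent (0.02 and 0.0222).

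Plvap, Nrg1 and Pecam1 were also lower in the ventricles of every wild-type pup. Plvap had a signal of 36.2, 44.2 and 357 in the atria and of 9.41, 8.92 and 17.4 in the ventricles, a difference of -2.77 ± 0.83 (limma, adjusted p = 0.318). Nrg1 had 105, 66.7 and 102 in the atria against 18.7, 16.9 and 13.7, a difference of -2.38 ± 1.18 (limma, adjusted p = 0.548). Cdh5 was higher in the ventricles of all 3 pups, by 0.88 ± 0.31 (limma, adjusted p = 0.408), with 275, 653 and 472 in the atria. The atrial library of wild-type pup 2, which held ventricular transcripts, had the highest Cdh5 signal of the 3. Endocardial genes leaned to the atria (13 of 17 lower in ventricles, median -0.76, Npr3 called at -2.90) and capillary and coronary genes to the ventricles (15 of 17 higher, median 1.35, 0 called).

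Of the ligands of these receptors, Bmp10 was called between the chambers. Bmp10, the atrial ligand that binds Eng, had a signal of 1287 ± 419 in wild-type atria and 7.62 ± 3.45 in wild-type ventricles (SD, n = 3 each), a difference of -7.27 ± 0.67 on the log2 scale (limma, adjusted p = 0.0077). Angpt1, the activating ligand of Tek, had a signal of 1116 ± 382 in atria and 173 ± 4.71 in ventricles, a difference of -2.61 ± 0.54 (limma, adjusted p = 0.159). Gdf2, which encodes BMP9, had a mean of at most 1.42 in all 6 groups and did not pass the filter.

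In the knockout pups, Kdr was again higher in the ventricles of every pup, with 172, 245 and 450 in the atria and 529, 894 and 714 in the ventricles, a difference of 1.38 ± 0.33 (limma, adjusted p = 0.213). Nrg1, Plvap, Eng, Emcn, Pecam1, Tek and Tie1 were lower in the ventricles of all 3 knockout pups. The share of all genes with the same direction in every pup was not computed, here, for the wild-type pups or for litter pairs. Such agreement is therefore given as values only. Plvap differed by -3.56 ± 0.83, Eng by -2.48 ± 0.92 and Emcn by -1.03 ± 0.32 (limma, adjusted p = 0.201, 0.4656 and 0.358). None of the 10 was called, where 0.199% of all genes were, and 6 of the 10 had an unadjusted p under 0.05 where 9.28% of all genes had. With the replicate block, Kdr (adjusted p = 0.0359), Plvap (0.0271) and Eng (0.0153) were called by limma, with the same limit on the SE.

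**Figure D3:**
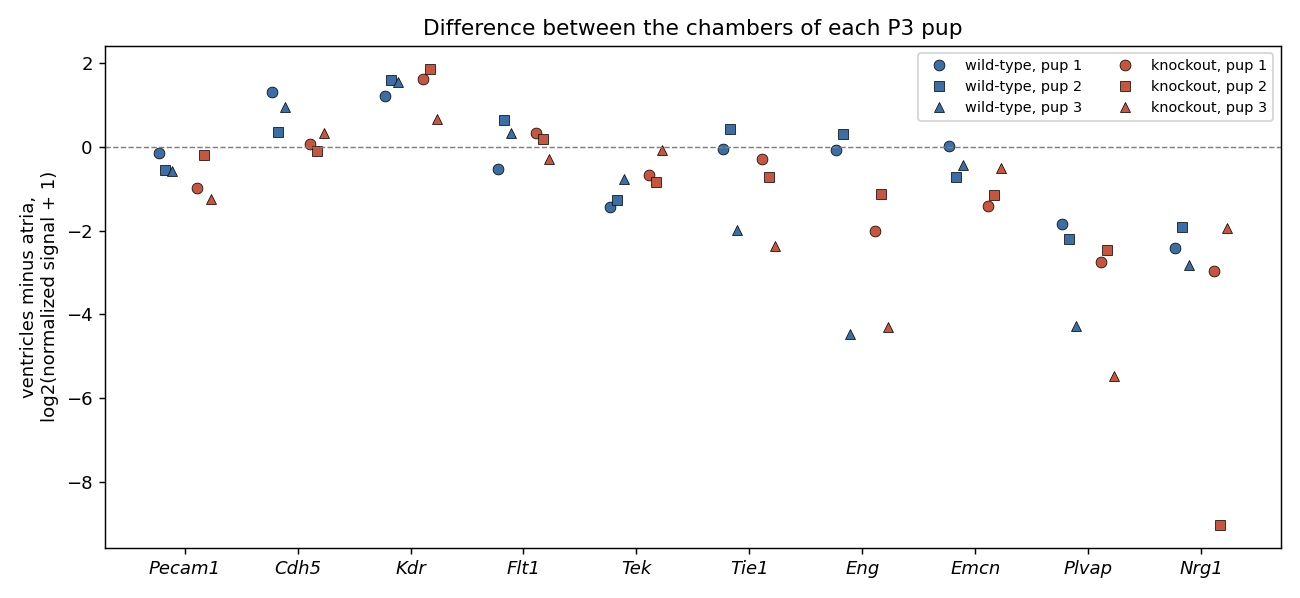
Ventricles minus atria within each P3 pup, as a difference of log2(signal + 1), for the 10 genes (blue wild-type, red knockout; marker shape gives the pup). Kdr lies above 0 and Plvap, Nrg1, Tek and Pecam1 lie below 0 in all 6 pups, and the lowest point, Nrg1 of knockout pup 2, comes from a ventricular signal of 0.

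The knockout was compared with the wild type in each tissue to ask what the loss of Creld1 in the myocardium changes. In the atria Emcn and Nrg1 were higher and Tek lower in all 3 knockout libraries than in all 3 wild-type libraries, but 0 of the 10 genes passed the adjusted threshold of limma, where 0.0276% of all genes did. At an unadjusted p under 0.05 there were 3 of the 10, against 5.32% of all genes, and 3 of the 10 had groups that did not overlap, against 7.91% of all genes. The 10 had a median difference of 0.28 against 0 for all genes, with 8 above 0 and 2 below. These tests take litter mates as independent. With the replicate number as a block, which here pairs litter mates of unlike genotype, none of the 10 was called.

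Nrg1, the endocardial ligand of ErbB receptors, had a signal of 105, 66.7 and 102 in the wild-type atria and of 422, 519 and 480 in the knockout atria. Its difference was 2.39 ± 1.08 on the log2 scale (SE, n = 3 each), a 5.23-fold higher signal, with an unadjusted p of 0.038 and an adjusted p of 0.903 by limma. No knockout library came near the wild-type range. The SE is from a spread estimated over all 6 groups, among them the knockout ventricles with a library at 0. When 1 library at a time was left out the difference ran from 2.18 to 2.501, and with the replicate block its adjusted p was 0.464. Of the ErbB receptors, Erbb2 differed by -0.28, Erbb3 by 0.23 and Erbb4 by -0.23, none called, and of 10 genes of the neuregulin pathway 7 were higher and 0 called.

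Emcn, the sialomucin of endocardium and veins, had a signal of 410, 329 and 478 in the wild-type atria and of 1229, 996 and 918 in the knockout atria. The groups were far apart, with a difference of 1.37 ± 0.46, or 2.59-fold, an unadjusted p of 0.00671 and an adjusted p of 0.665 (limma). With the replicate block, the SE was 0.39 and the adjusted p of limma 0.220. Emcn was higher in the knockout of all 3 litter pairs in the atria, as it was in the ventricles, where the signal was 413, 201 and 355 in the wild type and 459, 445 and 651 in the knockout, with no overlap. The ventricular difference was 0.72 ± 0.46 (limma, adjusted p = 1). At E13.5 it was 290, 314, 334 and 367 in the wild type and 553, 106, 443 and 566 in the knockout, where replicate 2 was below and the other 3 above every wild-type heart.

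Tek, the angiopoietin receptor, had a signal of 1797, 1440 and 1003 in the wild-type atria and of 969, 880 and 613 in the knockout atria, all 3 below the lowest wild-type library. The difference was -0.77 ± 0.26, with an unadjusted p of 0.00692 and an adjusted p of 0.671 (limma). With the replicate block, the SE was 0.19 and the adjusted p of limma 0.167. Tek was lower in the knockout of every litter pair in all 3 tissues. At E13.5 it was 672, 705, 978 and 815 in the wild type and 565, 613, 575 and 601 in the knockout, again with no overlap, a difference of -0.41 ± 0.22 (limma, adjusted p = 1). In the ventricles it was 662, 592 and 593 against 604, 494 and 580, a difference of -0.14 ± 0.26. Angpt2, a ligand that can block Tek, was at 17.6 ± 25.3 in the atria of wild-type pups and at 86.4 ± 63.3 in those of knockout pups (SD, n = 3 each), a difference of 3.40 ± 1.10 (limma, adjusted p = 0.637), and its libraries overlapped.

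Kdr, the main VEGF receptor, was lower in the knockout of all 3 litter pairs in the ventricles. In the atria it was lower in the first and second pairs and level in the third, at 454 in the wild type and 450 in the knockout. The atrial difference was -0.62 ± 0.32 (limma, adjusted p = 0.963), and -0.92 without the third pair. The third knockout library, at 450, lay within the wild-type range. In the ventricles the signal was 863, 1245 and 1318 in the wild type and 529, 894 and 714 in the knockout, with an overlap, a difference of -0.69 ± 0.32, an unadjusted p of 0.0417 and an adjusted p of 1 (limma). With the replicate block, the adjusted p of limma was 0.494 in the atria and 0.744 in the ventricles. In the E13.5 hearts Kdr was 401, 431, 404 and 488 in the knockout, a difference of -0.01 ± 0.27. Vegfa differed by 0.09, -0.04 and -0.04 on the log2 scale at E13.5, in atria and in ventricles, and Flt1, the receptor that can act as a decoy for VEGF, by 0.15, 0.19 and 0.12. Nrp1, a co-receptor of Kdr, had a signal of 867 ± 237 in the wild-type atria and 1259 ± 336 in the knockout atria, a difference of 0.54 ± 0.27 (limma, adjusted p = 0.963).

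Eng, Plvap and Tie1 had their highest values in the third atrial pair. Eng had a signal of 115, 139 and 1806 in the wild-type atria and of 539, 350 and 2292 in the knockout atria, Plvap 36.2, 44.2 and 357 against 83.7, 84.7 and 469, and Tie1 162, 76.4 and 482 against 138, 122 and 476. The lower library of that pair was 3.35 times the highest of the other 4 atrial libraries for Eng, 4.22 times for Plvap and 2.94 times for Tie1. By the same measure it was 1.16 times for Pecam1 and 1.09 times for Kdr. Eng and Plvap were higher in the knockout of every litter pair, with differences of 1.30 ± 0.80 and 0.83 ± 0.83 (limma, adjusted p = 1 for both). With the replicate block, the SE was 0.42 and 0.64 (limma, adjusted p = 0.312 and 0.811). Without the third pair they were 1.77 and 1.05 (limma, adjusted p = 0.385 and 0.832). Tie1 differed by 0.14 ± 0.56. Bmp10, the ligand of Eng, was at 1287 ± 419 in the wild-type and 2769 ± 875 in the knockout atria with no overlap (SD, n = 3 each), a difference of 1.11 ± 0.58 (limma, adjusted p = 0.974), and Acvrl1, its receptor, differed by 0.62 ± 1.12.

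Cdh5 and Pecam1, the junction genes, had small differences in the atria. Cdh5 differed by 0.37 ± 0.30, with 275, 653 and 472 in the wild type and 555, 543 and 604 in the knockout. Pecam1 differed by 0.16 ± 0.31 and was higher in the knockout of all 3 pairs, at 525, 608 and 745 against 604, 644 and 855. In the ventricles Cdh5 was lower in the knockout of all 3 pairs, by -0.42 ± 0.30.

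**Figure D4:**
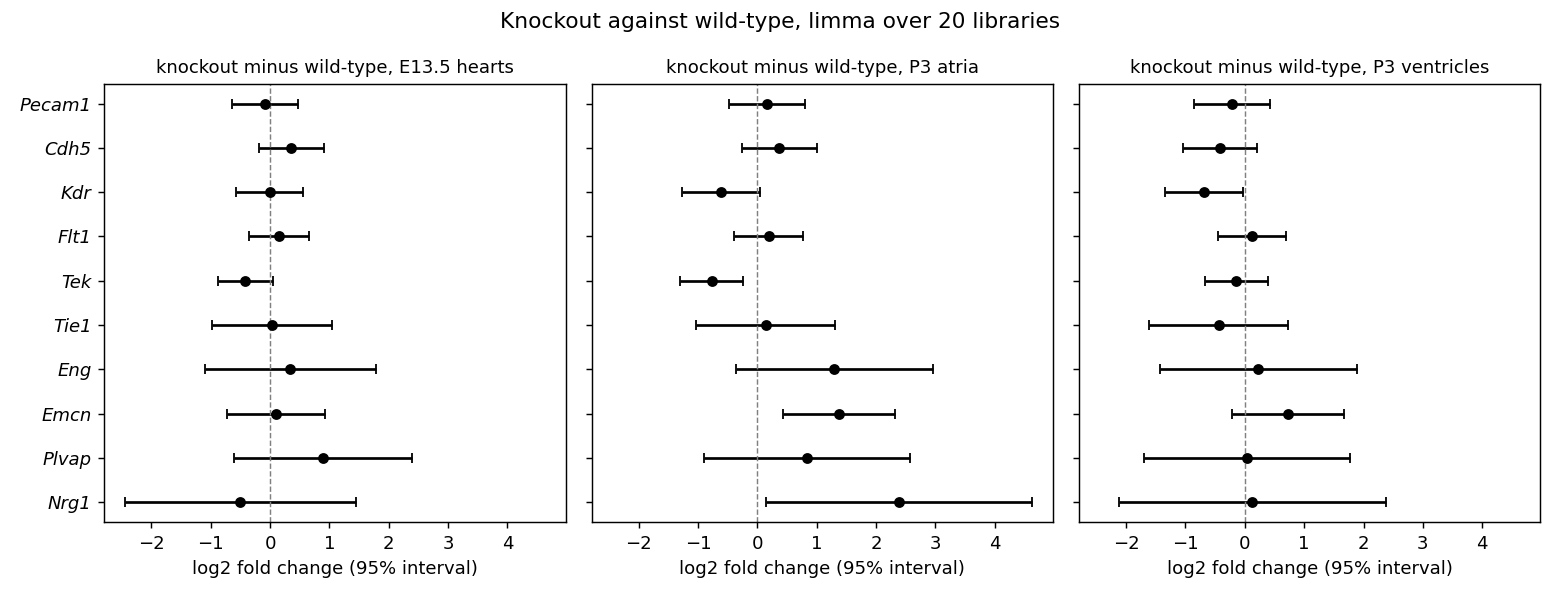
Knockout minus wild-type log2 fold change of the 10 genes in the E13.5 heart and the atria and ventricles at P3, from limma over 20 libraries (points, estimate; bars, 95% interval). The intervals of Emcn, Nrg1 and Tek in atria and of Kdr in ventricles exclude 0 before adjustment, and none passed the adjusted threshold.

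In the ventricles 0 of the 10 genes were called by limma, as was 0% of all genes, and 1 of the 10, Kdr, had an unadjusted p under 0.05 against 3.90% of all genes. Emcn was the 1 gene of the 10 whose groups did not overlap, where 10.5% of all genes had such groups. Of the 10 differences 5 were above 0, with a median of -0.05. Nrg1 had a signal of 18.7, 16.9 and 13.7 in the wild type and of 53.4, 0 and 124 in the knockout. The value of 0 in knockout pup 2 is at most a signal of 1.82, which 3 reads would give in that library, a limit for counting error only. Other pan-endothelial genes were lower in 24 of 29, with a median of -0.29 and 0 called, and their summed signal was 10611 to 12873 in the wild-type and 8287 to 10588 in the knockout ventricles.

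In the E13.5 hearts 0 of the 10 genes were called by limma, as was 0% of all genes, and none had an unadjusted p under 0.05, where 4.12% of all genes had. Tek was the 1 gene with groups that did not overlap, against 2.54% of all genes. Cdh5 had a signal of 317, 385, 413 and 242 in the wild type and of 367, 480, 415 and 455 in the knockout. It was higher in the knockout of all 4 pairs, though level in the third, with a difference of 0.36 ± 0.26. The 10 had a median of 0.06. Plvap differed by 0.90 ± 0.72 and Nrg1 by -0.50 ± 0.93, each with overlapping libraries.

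Whether the knockout effect differed between tissues was tested directly. No gene of the 10 was called in any of the 3 tests. For the atria against E13.5, Emcn had the smallest p of the 10, with an effect higher by 1.27 ± 0.60 (limma, unadjusted p = 0.047, adjusted p = 0.993), and Nrg1 had 2.89 ± 1.42 (limma, adjusted p = 0.999); 1 gene of all, or 0.00552%, was called. Emcn was the 1 gene of the 10 with an unadjusted p under 0.05 there, against 4.99% of all genes. For the ventricles against the atria, Nrg1 had -2.26 ± 1.67 and Tek 0.63 ± 0.43 (limma on within-pup differences, adjusted p = 1 for both). In that test 0% of all genes were called. Without adjustment 0 of the 10 and 2.59% of all genes had a p under 0.05. For the ventricles against E13.5, Cdh5 had -0.78 ± 0.40 (limma, adjusted p = 1), with 0% of all genes called; without adjustment 0 of the 10 and 4.02% of all genes had a p under 0.05.

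Genes of other endothelial kinds were read in the knockout atria as well. Of 17 capillary and coronary genes 15 were lower, with a median of -1.65 against 0 for all genes and 0 called. Their summed signal overlapped, at 8630 to 26959 in the wild type and 9293 to 17770 in the knockout, with medians of 23834 and 16463. These genes leaned to the ventricles in wild-type pups, and wild-type atria 2 held ventricular transcripts. The part of that library in the atrial result was not tested. In the ventricles the summed signal of the same 17 genes was 44156 to 55557 in the wild type and 33129 to 40332 in the knockout. Aplnr, the apelin receptor of sprouting and venous endothelium, was at 36.6 ± 5.53 in wild-type and 6.52 ± 7.01 in knockout atria, and Cxcl12, a chemokine of coronary vessels, 159 ± 133 and 40.5 ± 3.63 (SD, n = 3 each); the libraries of each did not overlap. Vwf, the clotting factor that endocardium and veins store, was at 150 ± 79.2 in wild-type and 666 ± 244 in knockout atria, and Edn1, endothelin 1, had 93.5 ± 52.3 and 599 ± 239 (limma, adjusted p = 0.462 and 0.6255). Of the 17 endocardial genes that hold both, 7 were higher and 10 lower, with a median of -0.15. Of 29 other pan-endothelial genes 12 were higher and 17 lower, with a median of -0.13.

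Markers of other cells moved with the atrial comparison. Erythroid markers were higher in the knockout for 7 of 8, with a median of 1.70 and 0 called, and their summed signal was 15591 to 18826 in the wild type and 31082 to 133129 in the knockout. All 9 ventricular markers had a mean log2 value lower in the knockout atria, with 0 called, but their sums were 3686, 19371 and 2845 in wild-type atria 1 to 3 and 4536, 2745 and 4479 in knockout atria 1 to 3, so that without wild-type 2 the groups overlapped; Irx4 was at 0 in every knockout atrium. Fibroblast markers were lower for 7 of 10, with 1 called, and summed to 83123 to 89489 against 62053 to 64755. Their part in the differences of the 10 genes was not tested. The summed signal of 29 other pan-endothelial genes overlapped, at 8321 to 9579 in the wild type and 7588 to 8600.0 in the knockout. Emcn, Nrg1 and Tek relative to these 29 genes differed by 1.64, 2.65 and -0.50, and without both libraries of wild-type pup 2 by 1.23, 2.18 and -0.74.

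Over the 20 libraries, Tie1 was most like Eng, with a Pearson correlation of log2 values of 0.82, and Eng and Plvap had 0.77. Without the third atrial pair the value for Tie1 and Eng was 0.30, and Eng was most like Emcn at 0.65. Kdr was nearest to Cdh5, at 0.53, and farthest from Nrg1, at -0.69. Outside the 10, the genes whose pattern was most like their mean were Bgn (0.96), Sparc, Mfap4, Adipor1, Loxl1 and Eln over all 20 libraries, and Ctla2a (0.93), Fabp5, Bgn, Cavin2, Tm4sf1 and Msln over the 18 without the third atrial pair. The libraries share groups, litters and depth, and the correlations are descriptions.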

How the data were processed

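RNA was extracted with a RNeasy Micro kit and made into SMART-Seq2 libraries, per the labels' protocols. Tools listed in the submitters' processing notes are STAR 2.5.1, bcl2fastq 2.2 and DESeq2, with the build mm10; no source used here names the counter or the annotation. The deposited values are a normalized signal per gene; how the authors scaled it is not stated. The signal of 1 read was estimated from pseudogenes, TEC, snoRNA and miRNA genes, where 99.7% to 99.8% of values under 100 reads were whole multiples of it within 0.01. Over all genes 40.1% to 48.5% of values up to 1000 reads were, so no count test was run. Values were analysed as log2(signal + 1). The filter kept genes that reached 10 in 3 or more libraries. limma 3.58.1 (R 4.3.3) with a variance trend was fitted to the 6 group means, or to each pup's ventricle minus atrium difference, two-sided, with Benjamini-Hochberg adjustment over all 18125 genes and a threshold of 0.05. The labels give same-numbered animals 1 litter and 1 preparation date, so the numbers pair the samples. Deviations of pairs correlated at 0.212 to 0.638 in atria, 0.02 to 0.0658 in ventricles and -0.0159 to 0.0159 at E13.5. Wild-type and knockout libraries of unlike number had -0.411 to 0.225, -0.0617 to 0.028 and -0.031 to 0.0248. The ranges overlapped in each tissue, so the pairing rests on the labels. The highest atrial value, 0.638, was that of the third pair. Its libraries had -0.411 to -0.322 with the atrial libraries of the other genotype and unlike number. The 10 genes, the 21 gene lists and the tests were chosen with earlier results of these data known. Genes named were the 10, their ligands and receptors, list genes called or, otherwise, the 2 of a list with the smallest unadjusted p, and the 6 genes most like the 10; other list genes were named after their values were seen.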

Additional observations from a re-analysis of the deposited data

How the results depend on the processing

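Of 30 differences between genotypes (10 genes, 3 tissues), 18 kept their sign under every alternative run and 12 reversed under at least 1; none of the 30 was called under any of them. The replicate block raised the number of the 10 genes called from 0 to 2 for wild-type atria against E13.5 hearts, from 0 to 2 for wild-type ventricles against atria and from 0 to 3 for knockout ventricles against atria, and changed no other call. These 3 comparisons lie between stages or tissues, where the block, or litter as a block, leaves the estimate as it was and takes the spread between litters out of the SE, so the added calls do not cover that spread. Litter as a block also gave 2 for atria against E13.5 hearts; quantile normalization and leaving out the third atrial pair gave 1 each (Tek). The fit over 6 groups gave 2 for wild-type ventricles against atria. For wild-type ventricles against E13.5 hearts the count of 2 became 0 relative to other pan-endothelial genes and 1 without wild-type pup 2. Leaving out 1 library at a time gave 0 to 3 there and 0 to 1 for atria against E13.5 hearts.

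Signs reversed as follows, and the cause was not tested. Relative to other pan-endothelial genes, Pecam1 had 0.066 and Kdr 0.15 at E13.5, and Pecam1 0.071 and Tek 0.15 in ventricles. With log2 Xist as a covariate, Pecam1 had 0.024, Kdr 0.084 and Emcn -0.038 at E13.5. Without the third atrial pair, Flt1 had -0.069 in atria; without wild-type pup 2, Tie1 had -0.48 in atria and Plvap -0.12 in ventricles; without knockout pup 2, an alternative chosen after seeing the data, Plvap had -0.10 in ventricles. With a pseudocount of 0.5, Nrg1 had -0.17 in ventricles. Leaving out 1 library at a time, the ranges that crossed 0 were, at E13.5, -0.23 to 0.074 for Pecam1, -0.12 to 0.084 for Kdr, -0.14 to 0.20 for Tie1 and -0.13 to 0.67 for Emcn; in atria, -0.039 to 0.33 for Flt1 and -0.48 to 0.84 for Tie1; and in ventricles, -0.14 to 0.32 for Flt1, -0.028 to 0.52 for Eng, -0.12 to 0.33 for Plvap and -1.23 to 2.25 for Nrg1. The covariate and the litter block were not run on within-pup differences, and fits of each stage and tissue alone were run only between genotypes. Depth limits Plvap, which had an estimated 6 to 24 reads in the ventricular libraries. It also limits Nrg1, with an estimated 20, 11 and 6 reads in wild-type ventricles 1 to 3 and 55, 0 and 142 in knockout ventricles 1 to 3.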
